A study of Mus musculus with 39 samples.

Results

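The members of the ADAMTS, ADAMTSL, MMP and TIMP gene families were described in mouse brown fat. They were the entries of the authors' table of normalised counts whose symbols belong to these families, kept where the value was above 0 in at least 4 of the 16 RNA libraries. Of 24116 gene entries, 44 met this rule, namely 18 ADAMTS, 5 ADAMTSL, 17 MMP and 4 TIMP genes. The study measured interscapular brown adipose tissue of male C57BL/6J mice by RNA sequencing and chromatin immunoprecipitation, and asked how the transcriptional repressor BCL6 acts in brown adipocytes at different housing temperatures. The 4 RNA groups, of 4 libraries each, were BCL6-floxed mice with UCP1Cre at 30 °C, BCL6-floxed mice without Cre at 30 °C, BCL6-floxed mice with UCP1Cre at 22 °C and BCL6-floxed mice without Cre at 22 °C. All groups, the controls included, carried the floxed Bcl6 allele, and no group carried UCP1Cre without it. UCP1Cre is driven by the Ucp1 promoter, which is active in brown adipocytes, so other cells of the tissue are meant to keep the floxed gene intact. Whether they do was not checked here. The labels give neither the age of the mice nor the time spent at 30 °C. The BCL6 peak list came from 1 library of control mice at 30 °C, and the other chromatin libraries were not analysed here.

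ADAMTS proteins are secreted zinc metalloproteases that cut proteoglycans, procollagens and other matrix proteins, while ADAMTSL proteins resemble them but lack the protease domain. Matrix metalloproteinases (MMPs) are secreted or membrane-bound proteases, made as inactive precursors, that together can cut most components of the extracellular matrix. Tissue inhibitors of metalloproteinases (TIMPs) bind the active site of MMPs, and TIMP3 also inhibits several ADAM and ADAMTS proteases. In fat, these enzymes take part in remodelling of the matrix around adipocytes and vessels, and stromal, endothelial and immune cells as well as adipocytes can make them.

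The normalised counts summed to 8867615 to 9975035 in the 8 libraries at 30 °C and to 10122739 to 13516936 in the 8 libraries at 22 °C, so the totals of the temperatures did not overlap. Between 14311 and 16849 entries were above 0 in a library, with the fewest in control 22 °C library 1 and the next fewest in Cre-labelled 22 °C library 2 (15226). How many reads each library held is unknown from the files and labels. Bcl6 itself went against a loss of the whole transcript: it was at 3269 to 5159 normalised counts in the Cre-positive libraries at 30 °C against 1020 to 2341 in the controls, and at 2671 to 3927 in the Cre-positive libraries at 22 °C against 764 to 1838 in the controls. A gene-level value also covers exons outside the floxed part, so it does not check the deletion, and the libraries are called Cre-labelled here. Ucp1, the defining gene of brown adipocytes, was present in all 16 libraries, at 3761 to 6829 in Cre-labelled and 13596 to 18219 in control libraries at 30 °C. The labels do not say whether libraries of a group came from separate mice, so p-values measure the spread between these libraries. In whole tissue, fewer cells of a type and less RNA per cell cannot be told apart.

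Of the 44 members, 34 had a mean of at least 10 normalised counts over the 16 libraries and were tested with limma on log2(value + 1), among 13176 genes in all. A gene was called where its p-value, adjusted over all 13176 genes by the Benjamini-Hochberg method, was under 0.05. Differences are given on the log2(value + 1) scale, on which low genes change less than they do on the scale of folds. Folds are ratios of group means of normalised counts.

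With the Cre label, a small set of ADAMTS genes was higher and 1 ADAMTSL gene was lower, at both temperatures. At 30 °C, 5 of the 34 tested members were higher in Cre-labelled than in control libraries (Adamts15, Adamts1, Adamts12, Adamts2 and Timp2) and 1 was lower (Adamtsl3); over all tested genes, 5.65% were higher and 6.85% lower. At 22 °C, 6 were higher (Adamts15, Adamts12, Adamts2, Mmp11, Adamtsl5 and Timp2) and 1 lower (Adamtsl3), where 5.51% of all tested genes were higher and 4.69% lower. Adamts15, Adamts12, Adamts2, Timp2 and Adamtsl3 were called at both temperatures in the same direction. The comparisons set different libraries against each other, but 1 fit of all 16 libraries gave the spread for both. Their calls are therefore not independent. The median log2 difference of the 34 members was 0.38 at 30 °C and 0.38 at 22 °C, against 0.00553 and -0.00416 over all tested genes. By family at 30 °C, 4 of 15 ADAMTS genes, 0 of 4 ADAMTSL genes, 0 of 11 MMP genes and 1 of 4 TIMP genes were higher. At 22 °C the corresponding counts were 3 ADAMTS, 1 ADAMTSL, 1 MMP and 1 TIMP gene.

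Scaling all libraries to equal totals shifted the median of all genes by 0.0673 at 30 °C and 0.174 at 22 °C. The split of called genes then became 879 higher and 703 lower at 30 °C, in place of 745 and 902, and 1306 higher and 303 lower at 22 °C, in place of 726 and 618. The members called became 5 higher and 1 lower at 30 °C, and 10 higher and 0 lower at 22 °C. The median member was at 0.445 and 0.544 on that scale, against 0.0729 and 0.169 over all genes. Under quantile normalisation the median member was at 0.342 at 30 °C and 0.194 at 22 °C, with 6 members higher and 1 lower at 30 °C, and 3 higher and 1 lower at 22 °C.

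**Figure D1:**
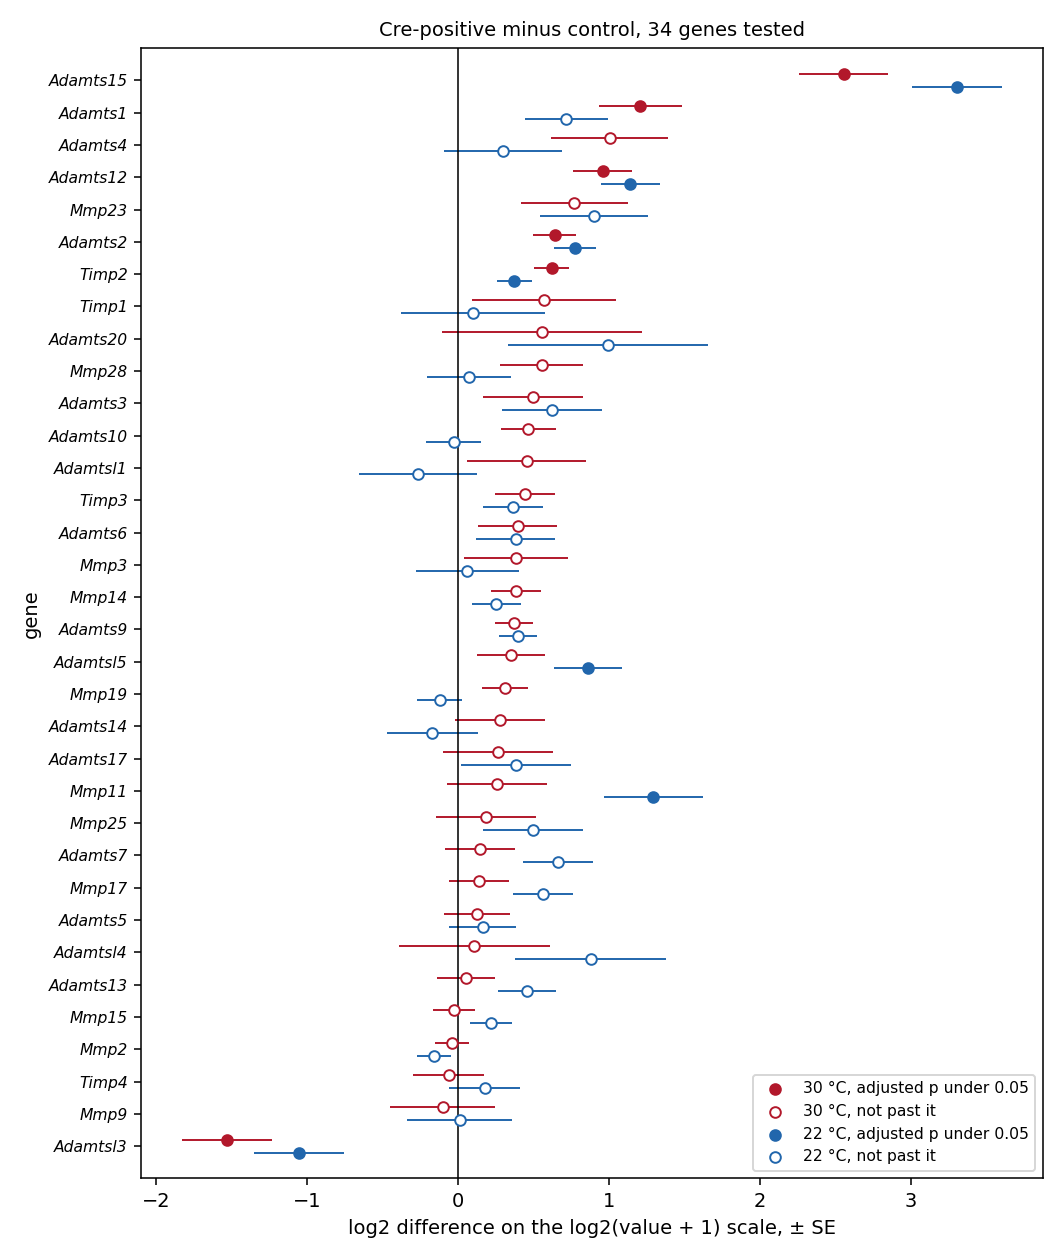
Log2 differences (x axis, log2(value + 1) scale, ± SE) of the 34 tested members (y axis) between Cre-labelled and control libraries at 30 °C (red) and 22 °C (blue), 4 libraries a group; filled points had an adjusted p under 0.05. Adamts15 lies farthest to the right, at 2.55 and 3.30, and Adamtsl3 farthest to the left, at -1.53 and -1.05.

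The proteoglycan-cutting ADAMTS genes held the member that differed most with the Cre label. Adamts15 (chr9:30899155-30922452, GRCm38), which encodes a protease of versican and aggrecan, was at 201, 269, 239 and 505 normalised counts in Cre-labelled libraries at 30 °C, against 43.4, 53.3, 53.1 and 42.0 in controls. At 22 °C it was at 234, 214, 211 and 223 in Cre-labelled libraries, against 11.9, 28.6, 16.4 and 37.0 in controls. Every Cre-labelled library stood above every control library, and library 4 was the highest of the Cre-labelled libraries at 30 °C. The means were 303 ± 137 against 47.9 ± 6.11 at 30 °C (SD, n = 4 each; 6.33-fold; log2 difference 2.55 ± 0.30 (SE), adjusted p = 3.07e-05). At 22 °C they were 221 ± 10.2 against 23.5 ± 11.5 (9.39-fold; log2 difference 3.30 ± 0.30 (SE), adjusted p = 2.2e-06).

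Adamts1 (chr16:85793827-85803113), another versican- and aggrecan-cutting protease, was at 2042, 1818, 2963 and 2396 in Cre-labelled libraries at 30 °C, against 753, 1717, 991 and 721 in controls. These groups did not overlap, with control library 2 the closest to the Cre-labelled libraries. The fold was 2.21 (log2 difference 1.21 ± 0.28 (SE), adjusted p = 0.00828). At 22 °C Adamts1 was at 1221, 573, 1223 and 947 in Cre-labelled libraries, against 431, 697, 698 and 527 in controls, with overlapping groups (log2 difference 0.72 ± 0.28 (SE), adjusted p = 0.109). Among the other proteoglycanases, Adamts4 averaged 28.9 ± 5.98 in Cre-labelled and 14.3 ± 4.65 in control libraries at 30 °C, groups that did not overlap but missed the threshold (log2 difference 1.00 ± 0.39 (SE), adjusted p = 0.106). Adamts9 averaged 1143 ± 22.9 in Cre-labelled and 888 ± 109 in control libraries at 30 °C (log2 difference 0.37 ± 0.13 (SE), adjusted p = 0.0673), and 938 ± 166 and 709.5 ± 105 at 22 °C (log2 difference 0.40 ± 0.13 (SE), adjusted p = 0.0571). Adamts5 differed by 0.13 at 30 °C and 0.16 at 22 °C, with an SE of 0.22 for each.

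Adamts12 (chr15:11064773-11349232), a protease that cuts cartilage oligomeric matrix protein, was at 119, 145, 115 and 101 in Cre-labelled libraries at 30 °C, against 79.1, 67.3, 56.6 and 44.9 in controls. At 22 °C it was at 143, 94.4, 122 and 115 in Cre-labelled libraries, against 42.8, 64.3, 59.0 and 47.2 in controls. All 8 Cre-labelled libraries lay above all 8 control libraries. The fold was 1.94 at 30 °C (log2 difference 0.96 ± 0.19 (SE), adjusted p = 0.0038) and 2.22 at 22 °C (log2 difference 1.14 ± 0.19 (SE), adjusted p = 0.0013). Its paralogue Adamts7, which cuts the same substrate, differed by 0.15 at 30 °C and 0.66 at 22 °C and passed the threshold at neither (adjusted p = 0.751 and 0.0813).

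Adamts2 (chr11:50602085-50807573) encodes a protease that removes the amino-terminal propeptide of fibrillar procollagens. It was at 381, 412, 338 and 292 in Cre-labelled libraries at 30 °C, against 229, 206, 196 and 281 in controls, and at 234, 296, 218 and 231 in Cre-labelled libraries at 22 °C, against 148, 129, 152 and 139 in controls. No Cre-labelled library lay below a control library of its temperature, and the highest control library at 30 °C, library 4, was just below the lowest Cre-labelled library. The fold was 1.56 at 30 °C (log2 difference 0.64 ± 0.14 (SE), adjusted p = 0.00634) and 1.73 at 22 °C (log2 difference 0.78 ± 0.14 (SE), adjusted p = 0.00217). The other procollagen N-propeptidases were not called with the Cre label. Adamts3 differed by 0.50 ± 0.33 (SE) at 30 °C and 0.62 ± 0.33 at 22 °C, and Adamts14 by 0.28 ± 0.30 and -0.17 ± 0.30.

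Among the inhibitors, Timp2 (chr11:118301061-118355411), which inhibits MMPs and also takes part in the activation of pro-MMP2 by MMP14, was at 847, 678, 793 and 782 in Cre-labelled libraries at 30 °C, against 621, 502, 459 and 442 in controls. At 22 °C it was at 366, 326, 356 and 385 in Cre-labelled libraries, against 259.8, 301, 251 and 294 in controls. Neither temperature had overlapping groups. The fold was 1.53 at 30 °C (log2 difference 0.62 ± 0.12 (SE), adjusted p = 0.00202) and 1.29 at 22 °C (log2 difference 0.37 ± 0.12 (SE), adjusted p = 0.0498). The call at 22 °C was lost without Cre-labelled 30 °C library 1, 2, 3 or 4, control 30 °C library 2, 3 or 4, Cre-labelled 22 °C library 1, 3 or 4 or control 22 °C library 1, 3 or 4 (adjusted p 0.0516 to 0.14) or under a pseudocount of 5, the wider filter, quantile normalisation, a fit of the groups alone, the replicate block, a fit with no trend, a robust fit or the skeletal muscle covariate (adjusted p 0.0502 to 0.116). Timp1, Timp3 and Timp4 were not called with the Cre label at either temperature.

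Adamtsl3 (chr7:82335399-82614450), an ADAMTS-like gene without a protease domain, was the member that fell with the Cre label. It was at 186, 172, 175 and 187 in Cre-labelled libraries at 30 °C, against 669.8, 614, 319 and 556 in controls. The Cre-labelled libraries were all lower and close together (mean 179.8 ± 7.36), against 539.7 ± 155 in controls (SD, n = 4 each; fold of controls over Cre-labelled 3.00; log2 difference -1.53 ± 0.30 (SE), adjusted p = 0.00288). At 22 °C it was at 92.1, 105, 149.6 and 115 in Cre-labelled libraries, against 256, 176, 142 and 488 in controls. There the groups overlapped, and control library 4 was far above the others (log2 difference -1.05 ± 0.30 (SE), adjusted p = 0.0333). This call was lost without Cre-labelled 22 °C library 1 or 4 or control 22 °C library 1 or 4 (adjusted p 0.0602 to 0.0941) or under scaling to equal totals, a fit of the groups alone, omission of the 2 sparsest libraries or the skeletal muscle covariate (adjusted p 0.0527 to 0.111).

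Adamtsl5, which binds fibrillin microfibrils, and Mmp11, an MMP activated inside the secretory pathway, were called with the Cre label at 22 °C and not at 30 °C, and in neither did the difference between the temperatures pass the threshold. Adamtsl5 was at 118, 86.6, 71.8 and 62.5 in Cre-labelled libraries, against 42.3, 43.0, 42.4 and 52.6 in controls, without overlap (1.88-fold; log2 difference 0.86 ± 0.22 (SE), adjusted p = 0.0219). It was not past the threshold without Cre-labelled 22 °C library 1 or control 22 °C library 3 (adjusted p 0.0593 to 0.0799) or under quantile normalisation or a fit of the groups alone (adjusted p 0.0572 to 0.0878). Mmp11 was at 67.5, 93.8, 93.5 and 65.4 in Cre-labelled libraries, against 42.3, 49.0, 23.7 and 20.1 in controls, also without overlap (2.37-fold; log2 difference 1.29 ± 0.33 (SE), adjusted p = 0.0196). That call was lost without Cre-labelled 22 °C library 3 or control 22 °C library 3 or 4 (adjusted p 0.0577 to 0.0651) or under quantile normalisation (adjusted p 0.0634). At 30 °C the differences were 0.35 ± 0.22 (SE) for Adamtsl5 and 0.26 ± 0.33 for Mmp11. Without single libraries, 6 to 7 members were called at 30 °C and 4 to 11 at 22 °C. The 4 came without control 22 °C library 3 or 4 or Cre-labelled 22 °C library 1, and the 11 without Cre-labelled 22 °C library 2.

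**Figure D2:**
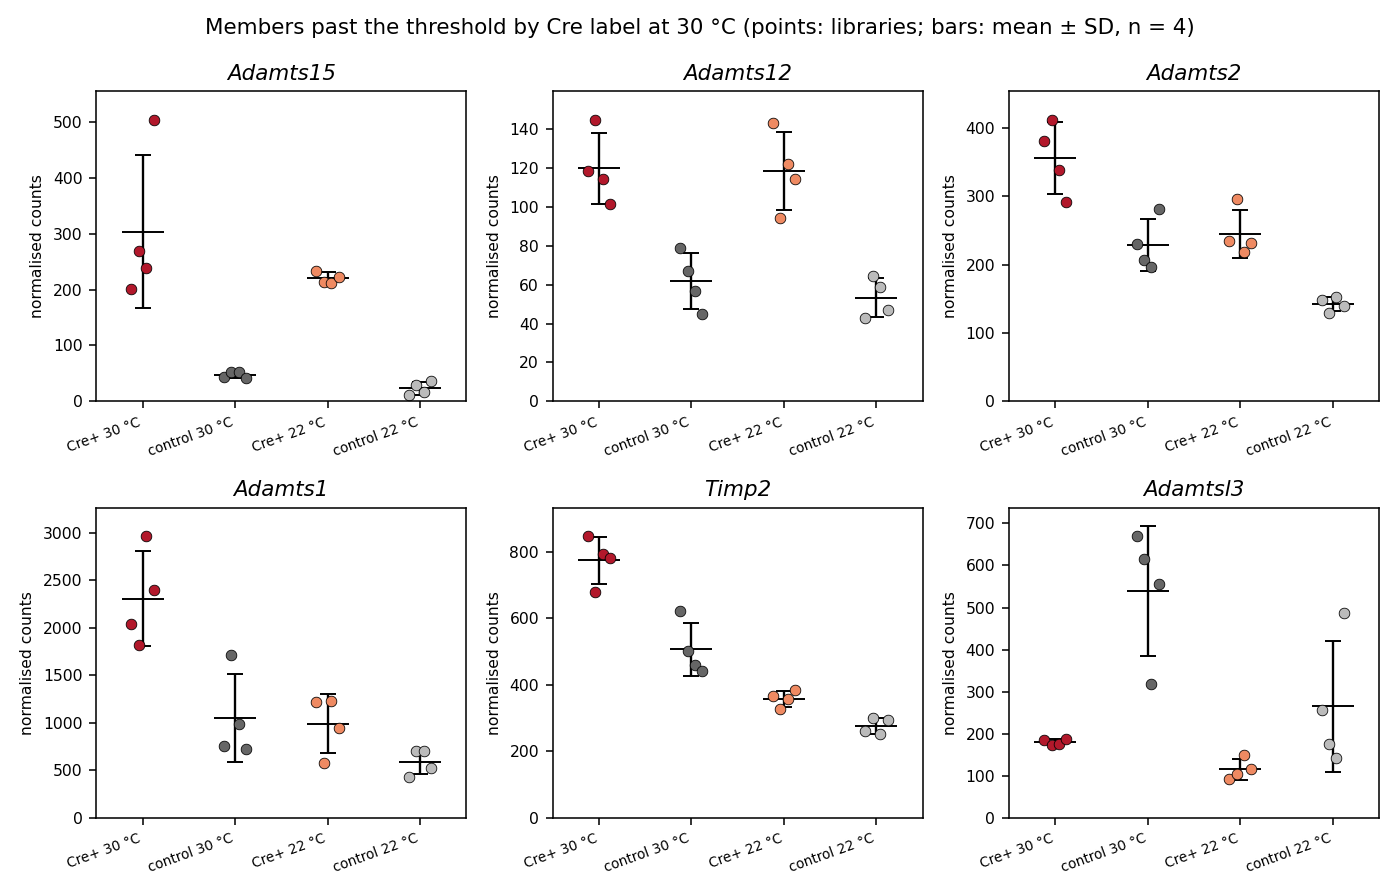
Normalised counts (y axis) of the 6 members called with the Cre label at 30 °C, in Cre-labelled and control libraries at 30 °C and then at 22 °C (x axis); points are libraries, bars the mean ± SD of 4. Adamts15 and Adamts12 separate all Cre-labelled from all control libraries, and Adamtsl3 is lower in every Cre-labelled than in every control library at 30 °C.

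Markers of other cells were also called with the Cre label. Of all tested genes, 5.65% were higher and 6.85% lower at 30 °C, and 5.51% and 4.69% at 22 °C. So 1 called gene in a list of 6 to 13 is near that background. Of 13 macrophage markers, 12 were higher in Cre-labelled libraries at 30 °C and 6 at 22 °C, and their summed values ran from 5875 to 18782 in Cre-labelled and from 3363 to 4342 in control libraries at 30 °C, and from 2072 to 2948 in Cre-labelled and from 1154 to 1960 in control libraries at 22 °C. Of 13 fibroblast and progenitor markers, 1 was higher at 30 °C and 2 at 22 °C, with sums of 20624 to 24160 in Cre-labelled and 18333 to 20701 in control libraries at 30 °C, and 11390 to 13769 in Cre-labelled and 9437 to 10737 in control libraries at 22 °C. Of 10 endothelial markers, 3 were higher at 30 °C and 4 at 22 °C, with sums of 28943 to 34127 in Cre-labelled and 24256 to 28976 in control libraries at 30 °C, and 18655 to 33319 in Cre-labelled and 15515 to 24784 in control libraries at 22 °C. Of 7 tested lymphocyte markers, 1 was higher at 30 °C and 3 at 22 °C, with sums of 164 to 256 in Cre-labelled and 121 to 181 in control libraries at 30 °C, and 96.6 to 146 in Cre-labelled and 54.8 to 81.3 in control libraries at 22 °C. Of 12 brown adipocyte markers, 3 were lower at 30 °C (Ucp1, Prdm16 and Cidea) and 2 at 22 °C (Elovl3 and Ucp1), and 0 were higher. Of 8 mural and smooth muscle markers, Tagln and Acta2 were higher at 30 °C and 0 at 22 °C. No marker of these 6 lists was at 0 in a whole group. Of 6 Schwann cell markers, 0 were higher and 1, S100b, was lower at both temperatures. Of 5 mesothelial markers the 1 tested, Lrrn4, was higher at both temperatures. The sum of the list was 248 to 440.0 in Cre-labelled and 42.6 to 58.9 in control libraries at 30 °C. At 22 °C it was 297 to 415 in Cre-labelled and 26.9 to 56.8 in control libraries. The other markers fell below the minimum mean, so this sum does not measure the list apart from Lrrn4. In that list Wt1 was at 0 throughout the control libraries at 30 °C, Upk3b and Wt1 throughout the Cre-labelled libraries at 22 °C, and Msln, Upk3b and Wt1 throughout the control libraries at 22 °C. Skeletal muscle markers summed to 50.6 to 27997 in Cre-labelled and 8656 to 16139 in control libraries at 30 °C, and to 151 to 32703 in Cre-labelled and 139.9 to 3929 in control libraries at 22 °C, and 0 of 12 were called. The part of these cells in the result was not tested, apart from a muscle covariate added after seeing the data, with which the 6 members called at 30 °C stayed at 6 and the 7 at 22 °C became 5.

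The BCL6 peak list of control mice at 30 °C held 3022 peaks, with the authors' peak scores from 4.11 to 170 and a median of 5.18. Of the 44 members, 4 (9.09%) were the nearest gene of a peak, against 10.3% of all 24116 entries, a share near that background. Those entries, unlike the members, also include genes not detected. Of the tested genes, 4 of 34 members and 1871 of all 13176 were nearest to a peak. Adamts12 had a peak at chr15:11065463-11065643 (mm10), in intron 1 of 23 and 780 bases past the start, with a score of 20.0 and rank 107. Adamts2 had one at chr11:50678947-50679127, in intron 3 of 21, 77.0 kb past the start, with a score of 17.2 and rank 153. Both genes were higher in the Cre-labelled libraries at both temperatures. Adamts15 was the nearest gene of 2 intergenic peaks, at chr9:30757505-30757685 (score 9.3, rank 412) and chr9:30809524-30809704 (score 4.29, rank 2294), 163.4 and 111.3 kb past its start and beyond its end. Timp3 was nearest to a peak at chr10:86257730-86257910, 42.6 kb upstream, with a score of 4.29. That peak lies in intron 6 of 13 of a transcript of Syn3, a gene within which Timp3 is nested, and counting by strand is not stated, so reads of the pair may be mixed. Across the 1871 tested genes nearest to a peak, 8.39% were higher and 7.48% lower in Cre-labelled libraries at 30 °C, and 8.55% higher and 4.65% lower at 22 °C. The list comes from 1 library, with no replicate of the peaks. Within 10 kb of the start, 1 member (2.27%) had a peak, against 4.93% of all entries, and within 50 kb, 2 members (4.55%), against 8.24%.

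**Figure D3:**
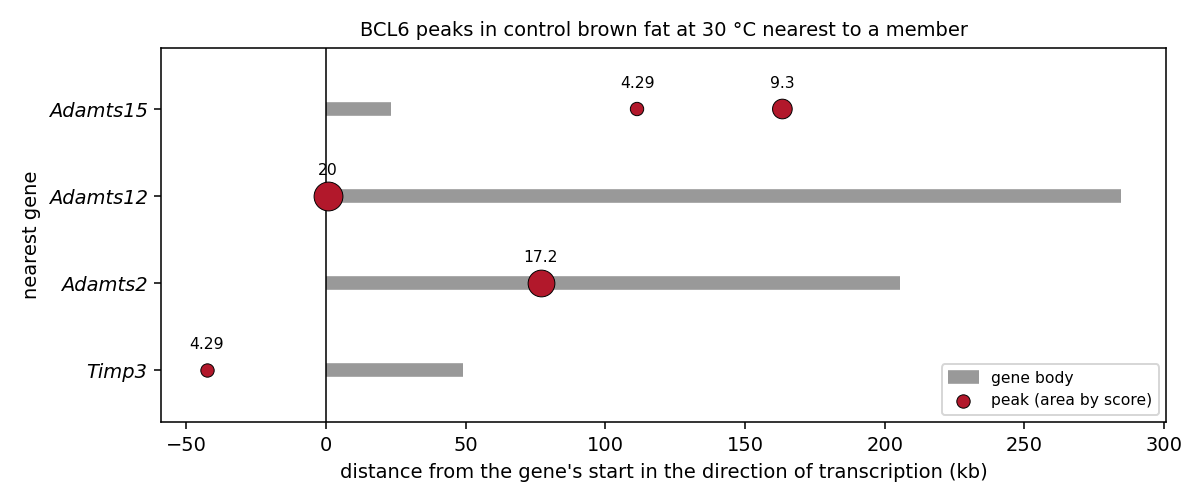
BCL6 peaks nearest to a member (red, area by the authors' score, which is printed above) against the distance from the gene's start in the direction of transcription (x axis, kb), 1 row a gene (y axis), with the gene body in grey. The Adamts12 peak lies at the start, and both Adamts15 peaks lie beyond the gene's end.

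The 250 bases before the start of Adamts12 and Adamts2 are printed because these members, like Adamts15, combine a peak with a difference at both temperatures. Those of Mmp3 and of 1 start of Mmp23 are printed because they hold the motifs searched. Promoters of RefSeq on GRCm38.p6 were found for 23 of the 34 tested members, Adamts15 not among them. In capitals is TTCCTNGAA, a core of sequences that BCL6 binds, or TGANTCA, the core of AP-1 sites, searched on both strands; TTCCTNGAA also matches TTCNNNGAA, the wider form shared with STAT factors.
Adamts12, chr15:11064523-11064772, plus strand: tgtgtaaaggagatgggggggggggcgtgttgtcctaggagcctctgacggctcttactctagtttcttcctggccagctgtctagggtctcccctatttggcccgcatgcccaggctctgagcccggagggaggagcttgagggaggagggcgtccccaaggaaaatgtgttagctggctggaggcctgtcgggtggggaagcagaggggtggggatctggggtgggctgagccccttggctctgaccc
Adamts2, chr11:50601835-50602084, plus strand: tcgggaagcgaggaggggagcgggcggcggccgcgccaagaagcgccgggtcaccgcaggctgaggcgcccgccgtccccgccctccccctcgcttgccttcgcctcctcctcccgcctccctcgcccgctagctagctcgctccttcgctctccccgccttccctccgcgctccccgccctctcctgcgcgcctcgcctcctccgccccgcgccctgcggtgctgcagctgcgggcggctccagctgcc
Mmp23, chr4:155653291-155653540, minus strand: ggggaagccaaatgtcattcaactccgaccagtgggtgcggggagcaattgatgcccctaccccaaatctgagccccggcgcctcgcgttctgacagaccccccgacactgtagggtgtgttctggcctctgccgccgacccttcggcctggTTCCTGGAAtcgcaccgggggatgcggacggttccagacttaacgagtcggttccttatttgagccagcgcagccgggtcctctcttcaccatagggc
Mmp3, chr9:7445572-7445821, plus strand: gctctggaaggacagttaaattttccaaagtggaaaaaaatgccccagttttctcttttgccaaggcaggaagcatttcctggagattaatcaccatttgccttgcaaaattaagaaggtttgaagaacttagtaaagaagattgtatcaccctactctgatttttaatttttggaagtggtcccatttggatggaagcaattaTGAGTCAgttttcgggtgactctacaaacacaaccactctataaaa
Among the 23 members, TTCCTNGAA and TTCNNNGAA were each found in 1, Mmp23, at position -98 from the start of the printed window. Mmp23 has another annotated start, whose window (chr4:155653385-155653634) holds neither motif. TGANTCA was found in 1 member, Mmp3 (position -46). In 32536 promoter windows of the same length, TTCCTNGAA was in 1.32%, TTCNNNGAA in 7.04% and TGANTCA in 6.73%. These letters are not in the windows of Adamts12 and Adamts2.

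Many members were higher at 30 °C than at 22 °C, and few were lower. These comparisons use the same 16 libraries as those by Cre label. In Cre-labelled libraries, 15 of 34 members were higher at 30 °C than at 22 °C and 2 lower, where 15.0% of all tested genes were higher and 17.7% lower. In control libraries, 19 were higher and 2 lower, where 22.9% of all genes were higher and 22.7% lower. The median log2 difference of the members was 0.61 in Cre-labelled and 0.70 in control libraries, against 0.0232 and 0.0384 over all genes. In Cre-labelled libraries the members higher were 7 of 15 ADAMTS, 1 of 4 ADAMTSL, 4 of 11 MMP and 3 of 4 TIMP genes. In control libraries they were 8 ADAMTS, 2 ADAMTSL, 6 MMP and 3 TIMP genes. Adamts3 and Mmp19 were the lower members in both, and 14 members were called in both comparisons.

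Totals of normalised counts were lower at 30 °C, and scaling to equal totals raised the median of all genes by 0.285 in Cre-labelled and 0.391 in control libraries. The split of called genes then became 4397 higher and 1127 lower in Cre-labelled libraries, in place of 1978 and 2336, and 6569 higher and 1161 lower in control libraries, in place of 3012 and 2987. The members became 19 higher and 1 lower in Cre-labelled and 27 higher and 2 lower in control libraries, with medians of 0.897 and 1.09, against 0.308 and 0.429 over all genes. Under quantile normalisation they were 14 higher and 3 lower in both genotypes, with medians of 0.516 in Cre-labelled and 0.424 in control libraries.

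**Figure D4:**
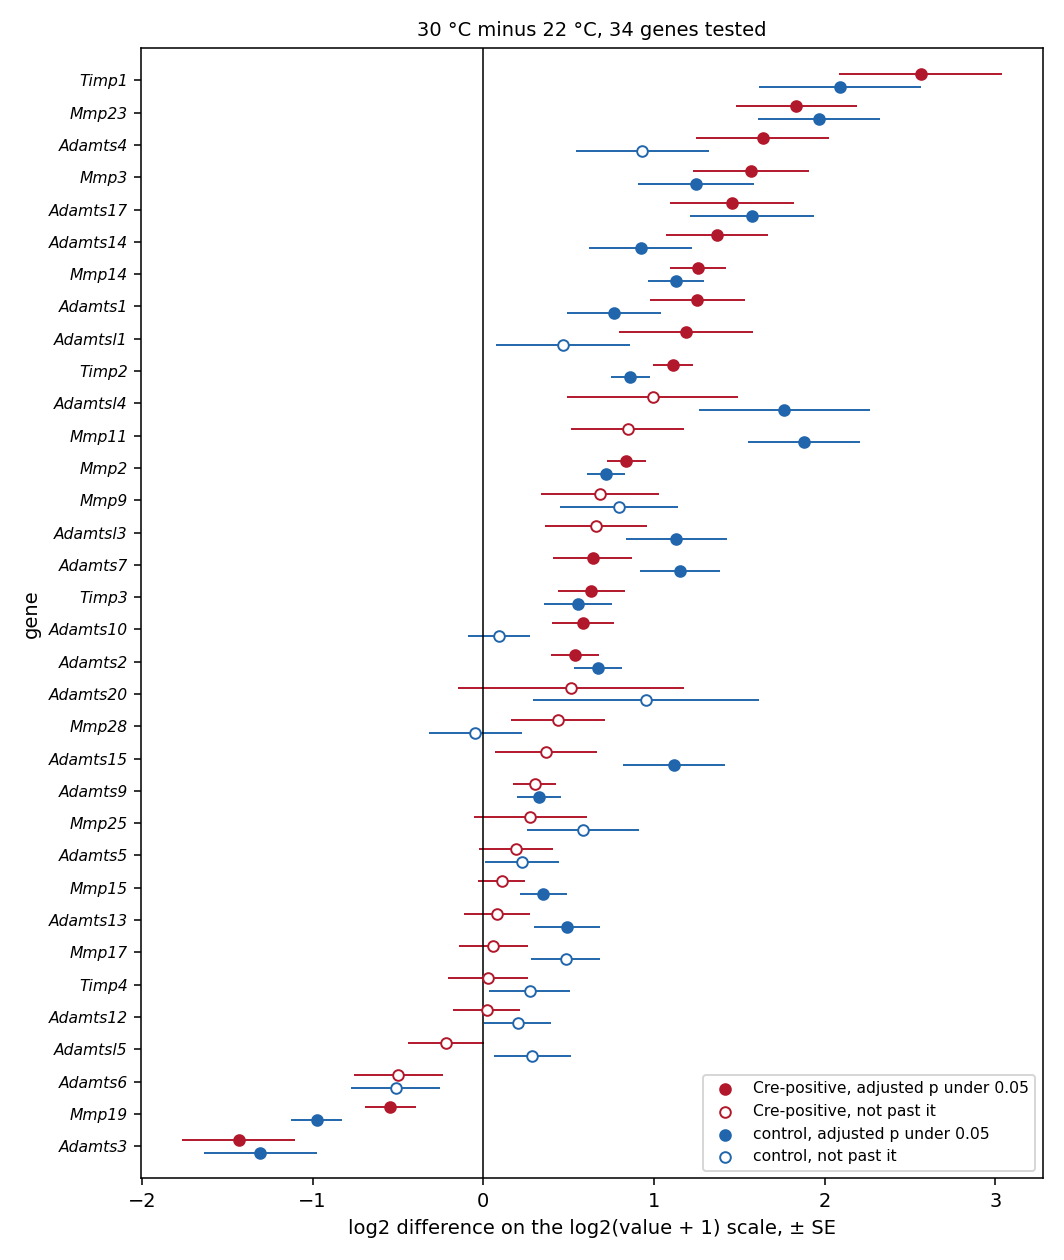
Log2 differences (x axis, log2(value + 1) scale, ± SE) of the 34 tested members (y axis) between 30 °C and 22 °C in Cre-labelled (red) and control (blue) libraries, 4 libraries a group; filled points had an adjusted p under 0.05. Timp1 is farthest to the right, at 2.56 and 2.09, and Adamts3 farthest to the left, at -1.43 and -1.30.

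Of the inhibitors, Timp1, Timp2 and Timp3 were higher at 30 °C in both genotypes. Timp1, a secreted inhibitor induced in many tissues during remodelling, was at 43.7, 21.5, 19.6 and 39.0 at 30 °C, against 6.30, 2.20, 5.55 and 3.46 at 22 °C in Cre-labelled libraries (log2 difference 2.56 ± 0.48 (SE), adjusted p = 0.000699). In controls Timp1 was at 17.2, 12.7, 18.9 and 33.2 at 30 °C, against 8.94, 2.97, 1.08 and 5.34 at 22 °C (log2 difference 2.09 ± 0.48 (SE), adjusted p = 0.0022). Values of Timp1 at the 2 temperatures did not overlap in either genotype. The fold of the means was 7.07 in Cre-labelled and 4.48 in control libraries, at low values. Timp2 was at 847, 678, 793 and 782 at 30 °C, against 366, 326, 356 and 385 at 22 °C in Cre-labelled libraries (log2 difference 1.11 ± 0.12 (SE), adjusted p = 8.74e-06). In controls Timp2 was at 621, 502, 459 and 442 at 30 °C, against 259.8, 301, 251 and 294 at 22 °C (log2 difference 0.86 ± 0.12 (SE), adjusted p = 3.14e-05). Values of Timp2 at the 2 temperatures did not overlap in either genotype. Timp3, which stays bound to the matrix, was at 7671, 9947, 10761 and 9396 at 30 °C, against 5759, 6149, 6469 and 5818 at 22 °C in Cre-labelled libraries (log2 difference 0.63 ± 0.20 (SE), adjusted p = 0.0213). In controls Timp3 was at 7398, 10392, 5837 and 5022 at 30 °C, against 3491, 4492, 4996 and 6189 at 22 °C (log2 difference 0.55 ± 0.20 (SE), adjusted p = 0.0314). Values of Timp3 at the 2 temperatures overlapped in controls and not in Cre-labelled libraries. The Timp3 call in Cre-labelled libraries was lost without Cre-labelled 30 °C library 3 (adjusted p 0.0612). The Timp3 call in controls was lost without control 30 °C library 1 or 2 or control 22 °C library 1 or 2 (adjusted p 0.0615 to 0.116) or under a fit of the groups alone, omission of the 2 sparsest libraries or the skeletal muscle covariate (adjusted p 0.0702 to 0.159). Timp4 averaged 1564 ± 364 at 30 °C against 1559 ± 502 at 22 °C in Cre-labelled libraries, and 1645 ± 410.5 against 1347 ± 276 in controls (SD, n = 4 each), and was called in neither.

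The gelatinase Mmp2 and its activator Mmp14 rose together at 30 °C. Mmp14, a membrane-bound collagenase that activates pro-MMP2, was at 507, 383, 395 and 460.4 at 30 °C, against 160.0, 135, 241 and 205 at 22 °C in Cre-labelled libraries (log2 difference 1.26 ± 0.16 (SE), adjusted p = 4.38e-05). In controls Mmp14 was at 352, 288, 363 and 331 at 30 °C, against 154, 172, 127 and 155 at 22 °C (log2 difference 1.13 ± 0.16 (SE), adjusted p = 5.78e-05). Values of Mmp14 at the 2 temperatures did not overlap in either genotype. Mmp2 was at 434, 447, 536 and 456 at 30 °C, against 251, 257, 302 and 237 at 22 °C in Cre-labelled libraries (log2 difference 0.84 ± 0.11 (SE), adjusted p = 5.43e-05). In controls Mmp2 was at 507, 531, 474 and 417 at 30 °C, against 279.7, 311, 264 and 313 at 22 °C (log2 difference 0.72 ± 0.11 (SE), adjusted p = 0.000106). Values of Mmp2 at the 2 temperatures did not overlap in either genotype. Mmp14 was 2.36-fold higher at 30 °C in Cre-labelled and 2.19-fold higher in control libraries, and Mmp2 1.79-fold and 1.65-fold. The other gelatinase, Mmp9, averaged 32.1 ± 19.3 at 30 °C against 18.2 ± 5.57 at 22 °C in Cre-labelled libraries and 31.1 ± 4.02 against 18.2 ± 6.32 in controls, and was called in neither (0.144 and 0.0704 as adjusted p).

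Other MMP genes that rose at 30 °C included membrane-anchored and stromelysin members. Mmp23, a membrane-anchored MMP, was at 119.5, 289, 179.6 and 214 at 30 °C, against 48.7, 131, 32.9 and 36.8 at 22 °C in Cre-labelled libraries (log2 difference 1.83 ± 0.36 (SE), adjusted p = 0.000978). In controls Mmp23 was at 124, 142, 120.4 and 73.3 at 30 °C, against 34.4, 24.6, 26.4 and 26.8 at 22 °C (log2 difference 1.97 ± 0.36 (SE), adjusted p = 0.000382). Values of Mmp23 at the 2 temperatures overlapped in Cre-labelled libraries and not in controls. Mmp3, a stromelysin that cuts many matrix proteins, was at 66.8, 39.2, 52.0 and 79.9 at 30 °C, against 23.4, 29.0, 17.0 and 10.4 at 22 °C in Cre-labelled libraries (log2 difference 1.57 ± 0.34 (SE), adjusted p = 0.00222). In controls Mmp3 was at 26.3, 52.5, 39.6 and 66.8 at 30 °C, against 16.1, 13.6, 26.9 and 17.2 at 22 °C (log2 difference 1.25 ± 0.34 (SE), adjusted p = 0.00729). Values of Mmp3 at the 2 temperatures overlapped in controls and not in Cre-labelled libraries. The Mmp3 call in controls was lost under quantile normalisation (adjusted p 0.171).

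Mmp11 was at 187, 144, 171 and 89.8 at 30 °C, against 67.5, 93.8, 93.5 and 65.4 at 22 °C in Cre-labelled libraries (log2 difference 0.85 ± 0.33 (SE), adjusted p = 0.058). In controls Mmp11 was at 117, 63.0, 166 and 163 at 30 °C, against 42.3, 49.0, 23.7 and 20.1 at 22 °C (log2 difference 1.88 ± 0.33 (SE), adjusted p = 0.000288). Values of Mmp11 at the 2 temperatures overlapped in Cre-labelled libraries and not in controls. Mmp15, a membrane-type MMP, was at 414, 351, 398 and 323 at 30 °C, against 360.5, 326, 385 and 306 at 22 °C in Cre-labelled libraries (log2 difference 0.11 ± 0.14 (SE), adjusted p = 0.587). In controls Mmp15 was at 383, 283, 439 and 422 at 30 °C, against 259, 325, 284 and 314 at 22 °C (log2 difference 0.35 ± 0.14 (SE), adjusted p = 0.0467). Values of Mmp15 at the 2 temperatures overlapped in both genotypes. The Mmp15 call in controls was lost without Cre-labelled 30 °C library 1, 2 or 3, control 30 °C library 1, 3 or 4, Cre-labelled 22 °C library 1 or 4 or control 22 °C library 1, 3 or 4 (adjusted p 0.0502 to 0.143) or under the wider filter, a fit of the groups alone, the replicate block, a fit with no trend, omission of the 2 sparsest libraries or the skeletal muscle covariate (adjusted p 0.0541 to 0.107). Mmp19, a secreted MMP, moved the other way. Mmp19 was at 425, 364, 315 and 475 at 30 °C, against 564, 571, 521 and 626 at 22 °C in Cre-labelled libraries (log2 difference -0.54 ± 0.15 (SE), adjusted p = 0.0111). In controls Mmp19 was at 309, 343, 255 and 360.5 at 30 °C, against 505, 716, 737 and 552 at 22 °C (log2 difference -0.98 ± 0.15 (SE), adjusted p = 0.000105). Values of Mmp19 at the 2 temperatures did not overlap in either genotype. The Mmp19 call in Cre-labelled libraries was lost under scaling to equal totals (adjusted p 0.207). The values of Mmp19 were 1.44-fold higher at 22 °C in Cre-labelled and 1.98-fold higher at 22 °C in control libraries.

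**Figure D5:**
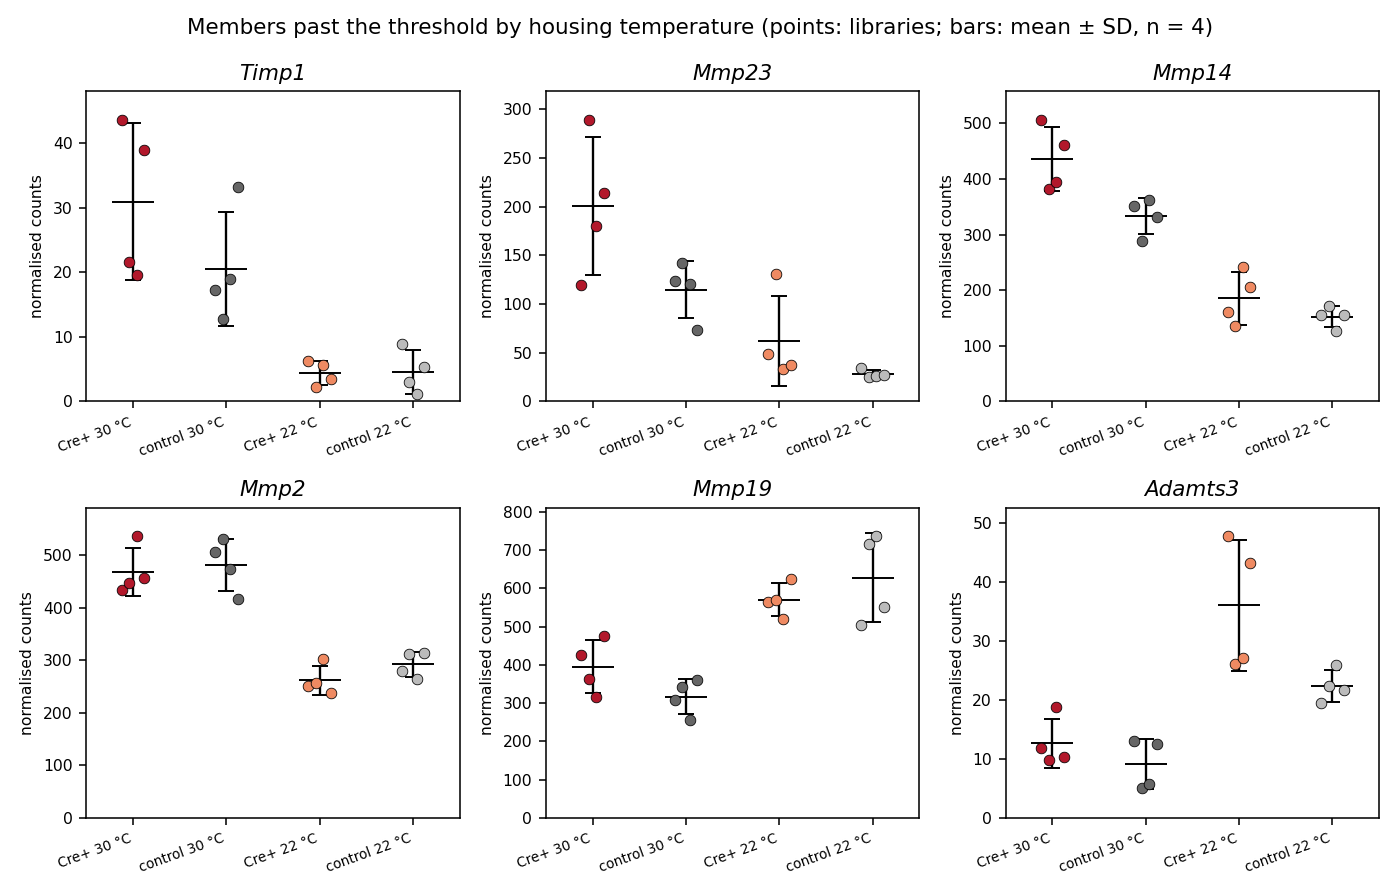
Normalised counts (y axis) of 6 members called by temperature, in Cre-labelled and control libraries at 30 °C and then at 22 °C (x axis); points are libraries, bars the mean ± SD of 4. Timp1, Mmp14 and Mmp2 are higher in all 8 libraries at 30 °C than in those at 22 °C, and Mmp19 and Adamts3 are lower.

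The procollagen N-propeptidases moved in opposite directions with temperature. Adamts2 was at 381, 412, 338 and 292 at 30 °C, against 234, 296, 218 and 231 at 22 °C in Cre-labelled libraries (log2 difference 0.54 ± 0.14 (SE), adjusted p = 0.00757). In controls Adamts2 was at 229, 206, 196 and 281 at 30 °C, against 148, 129, 152 and 139 at 22 °C (log2 difference 0.67 ± 0.14 (SE), adjusted p = 0.00116). Values of Adamts2 at the 2 temperatures overlapped in Cre-labelled libraries and not in controls. Adamts14 was at 35.7, 35.4, 39.1 and 36.0 at 30 °C, against 10.6, 8.56, 23.6 and 15.4 at 22 °C in Cre-labelled libraries (log2 difference 1.37 ± 0.30 (SE), adjusted p = 0.00237). In controls Adamts14 was at 31.8, 26.3, 28.9 and 33.2 at 30 °C, against 23.0, 14.7, 17.7 and 9.16 at 22 °C (log2 difference 0.92 ± 0.30 (SE), adjusted p = 0.0197). Values of Adamts14 at the 2 temperatures did not overlap in either genotype. The Adamts14 call in controls was lost without control 22 °C library 4 (adjusted p 0.0685) or under quantile normalisation or the skeletal muscle covariate (adjusted p 0.052 to 0.352). Adamts3, which in mice also takes part in the processing of VEGF-C, was at 11.8, 9.88, 18.8 and 10.3 at 30 °C, against 47.8, 26.1, 27.2 and 43.2 at 22 °C in Cre-labelled libraries (log2 difference -1.43 ± 0.33 (SE), adjusted p = 0.0034). In controls Adamts3 was at 13.01, 5.08, 5.76 and 12.6 at 30 °C, against 19.4, 22.4, 25.9 and 21.7 at 22 °C (log2 difference -1.30 ± 0.33 (SE), adjusted p = 0.00454). Values of Adamts3 at the 2 temperatures did not overlap in either genotype. The fold of Adamts3 at 22 °C over 30 °C was 2.84 in Cre-labelled and 2.45 in control libraries, at low values.

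Several proteoglycanases were higher at 30 °C. Adamts1 was at 2042, 1818, 2963 and 2396 at 30 °C, against 1221, 573, 1223 and 947 at 22 °C in Cre-labelled libraries (log2 difference 1.25 ± 0.28 (SE), adjusted p = 0.00241). In controls Adamts1 was at 753, 1717, 991 and 721 at 30 °C, against 431, 697, 698 and 527 at 22 °C (log2 difference 0.76 ± 0.28 (SE), adjusted p = 0.0325). Values of Adamts1 at the 2 temperatures did not overlap in either genotype. The Adamts1 call in controls was lost without control 30 °C library 2 or 3 or control 22 °C library 1 or 4 (adjusted p 0.0629 to 0.12) or under omission of the 2 sparsest libraries or the skeletal muscle covariate (adjusted p 0.0519 to 0.168). Adamts4, an aggrecanase, was at 37.4, 24.2, 28.8 and 25.2 at 30 °C, against 7.10, 7.84, 9.49 and 9.75 at 22 °C in Cre-labelled libraries (log2 difference 1.64 ± 0.39 (SE), adjusted p = 0.0041). In controls Adamts4 was at 8.47, 12.8, 16.7 and 19.1 at 30 °C, against 17.8, 5.35, 5.37 and 3.63 at 22 °C (log2 difference 0.93 ± 0.39 (SE), adjusted p = 0.0602). Values of Adamts4 at the 2 temperatures overlapped in controls and not in Cre-labelled libraries. Adamts9 was at 1146, 1165, 1111 and 1150.2 at 30 °C, against 846, 810.0, 1177 and 919 at 22 °C in Cre-labelled libraries (log2 difference 0.30 ± 0.13 (SE), adjusted p = 0.0818). In controls Adamts9 was at 1039.9, 876, 853 and 783 at 30 °C, against 619.8, 846, 633 and 739 at 22 °C (log2 difference 0.33 ± 0.13 (SE), adjusted p = 0.046). Values of Adamts9 at the 2 temperatures overlapped in both genotypes. The Adamts9 call in controls was lost without Cre-labelled 30 °C library 1, 2, 3 or 4, control 30 °C library 1, 2 or 3, Cre-labelled 22 °C library 1 or 4 or control 22 °C library 1, 3 or 4 (adjusted p 0.0512 to 0.15) or under the wider filter, a fit of the groups alone, the replicate block, a fit with no trend, omission of the 2 sparsest libraries or the skeletal muscle covariate (adjusted p 0.0513 to 0.0893).

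Adamts15, the member farthest apart by Cre label, rose at 30 °C in controls, with the values given above (47.9 as the mean at 30 °C against 23.5 at 22 °C; log2 difference 1.12 ± 0.30 (SE), adjusted p = 0.00622), and was not called in Cre-labelled libraries (log2 difference 0.37 ± 0.30 (SE), adjusted p = 0.372). The control call was lost under quantile normalisation (adjusted p 0.121). Adamts12 was called by temperature in neither genotype (log2 difference 0.02 ± 0.19 (SE), adjusted p = 0.95 in Cre-labelled libraries; log2 difference 0.20 ± 0.19 (SE), adjusted p = 0.415 in controls). Adamts7 was at 111, 143, 163 and 109 at 30 °C, against 78.1, 80.8, 99.4 and 75.1 at 22 °C in Cre-labelled libraries (log2 difference 0.64 ± 0.23 (SE), adjusted p = 0.0433). In controls Adamts7 was at 139.8, 86.0, 147 and 106 at 30 °C, against 35.7, 82.3, 45.8 and 54.3 at 22 °C (log2 difference 1.15 ± 0.23 (SE), adjusted p = 0.00087). Values of Adamts7 at the 2 temperatures did not overlap in either genotype. The Adamts7 call in Cre-labelled libraries was lost without Cre-labelled 30 °C library 1, 2 or 3, control 30 °C library 4, Cre-labelled 22 °C library 1, 2 or 4 or control 22 °C library 4 (adjusted p 0.0511 to 0.123) or under the wider filter, quantile normalisation or the replicate block (adjusted p 0.0528 to 0.1). Adamts17, which is linked to fibrillin microfibrils, was at 17.0, 21.2, 23.2 and 24.1 at 30 °C, against 5.68, 6.73, 11.1 and 5.94 at 22 °C in Cre-labelled libraries (log2 difference 1.46 ± 0.36 (SE), adjusted p = 0.00569). In controls Adamts17 was at 20.7, 13.2, 24.1 and 14.1 at 30 °C, against 11.1, 4.67, 2.79 and 4.74 at 22 °C (log2 difference 1.57 ± 0.36 (SE), adjusted p = 0.00243). Values of Adamts17 at the 2 temperatures did not overlap in either genotype. The Adamts17 call in controls was lost under quantile normalisation (adjusted p 0.0759).

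Adamts10, also linked to fibrillin microfibrils, was at 706, 515, 712 and 586 at 30 °C, against 492, 292, 508 and 410.3 at 22 °C in Cre-labelled libraries (log2 difference 0.58 ± 0.18 (SE), adjusted p = 0.0205). In controls Adamts10 was at 555, 381, 535 and 368 at 30 °C, against 366, 491, 418 and 431 at 22 °C (log2 difference 0.09 ± 0.18 (SE), adjusted p = 0.707). Values of Adamts10 at the 2 temperatures overlapped in controls and not in Cre-labelled libraries. The Adamts10 call in Cre-labelled libraries was lost without Cre-labelled 30 °C library 1 or 3 or Cre-labelled 22 °C library 2 (adjusted p 0.0602 to 0.0762) or under omission of the 2 sparsest libraries (adjusted p 0.0594). Adamts13, the protease of von Willebrand factor, was at 209.7, 149, 272 and 162 at 30 °C, against 216, 137, 168 and 222 at 22 °C in Cre-labelled libraries (log2 difference 0.08 ± 0.19 (SE), adjusted p = 0.785). In controls Adamts13 was at 160.4, 177, 209 and 202 at 30 °C, against 115, 156, 121 and 142 at 22 °C (log2 difference 0.49 ± 0.19 (SE), adjusted p = 0.047). Values of Adamts13 at the 2 temperatures overlapped in Cre-labelled libraries and not in controls. The Adamts13 call in controls was lost without Cre-labelled 30 °C library 1, control 30 °C library 2, 3 or 4, Cre-labelled 22 °C library 3 or control 22 °C library 1, 3 or 4 (adjusted p 0.0538 to 0.116) or under the wider filter, quantile normalisation, the replicate block, a fit with no trend, omission of the 2 sparsest libraries or the skeletal muscle covariate (adjusted p 0.0544 to 0.179). For these genes the call was made in a single genotype, and the difference between genotypes did not pass the threshold.

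Of the ADAMTSL genes, Adamtsl1, Adamtsl3 and Adamtsl4 were called by temperature, in 1 genotype each. Adamtsl1 was at 54.0, 32.4, 108 and 69.3 at 30 °C, against 25.3, 13.1, 39.8 and 33.7 at 22 °C in Cre-labelled libraries (log2 difference 1.19 ± 0.39 (SE), adjusted p = 0.028). In controls Adamtsl1 was at 45.5, 49.3, 39.4 and 41.4 at 30 °C, against 14.6, 45.4, 34.5 and 41.5 at 22 °C (log2 difference 0.47 ± 0.39 (SE), adjusted p = 0.342). Values of Adamtsl1 at the 2 temperatures overlapped in both genotypes. The Adamtsl1 call in Cre-labelled libraries was lost without Cre-labelled 30 °C library 3 or 4 or Cre-labelled 22 °C library 1 or 2 (adjusted p 0.0534 to 0.104) or under quantile normalisation (adjusted p 0.0861). Adamtsl3 was at 186, 172, 175 and 187 at 30 °C, against 92.1, 105, 149.6 and 115 at 22 °C in Cre-labelled libraries (log2 difference 0.66 ± 0.30 (SE), adjusted p = 0.102). In controls Adamtsl3 was at 669.8, 614, 319 and 556 at 30 °C, against 256, 176, 142 and 488 at 22 °C (log2 difference 1.13 ± 0.30 (SE), adjusted p = 0.00582). Values of Adamtsl3 at the 2 temperatures overlapped in controls and not in Cre-labelled libraries. Adamtsl4, which binds fibrillin, was at 70.3, 102, 112 and 50.3 at 30 °C, against 51.9, 21.0, 45.1 and 49.5 at 22 °C in Cre-labelled libraries (log2 difference 0.99 ± 0.50 (SE), adjusted p = 0.141). In controls Adamtsl4 was at 119.8, 70.3, 52.8 and 66.9 at 30 °C, against 4.71, 29.9, 29.7 and 42.8 at 22 °C (log2 difference 1.76 ± 0.50 (SE), adjusted p = 0.00913). Values of Adamtsl4 at the 2 temperatures overlapped in Cre-labelled libraries and not in controls. The Adamtsl4 call in controls was lost under the skeletal muscle covariate (adjusted p 0.0797).

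Across the temperature comparisons, many macrophage, fibroblast and lymphocyte markers were also higher at 30 °C, while mural markers went both ways. Of all tested genes, 15.0% were higher and 17.7% lower in Cre-labelled libraries, and 22.9% and 22.7% in controls. The endothelial and mural lists are short, and their counts are not far from those shares. Of 13 macrophage markers, 12 were higher at 30 °C in Cre-labelled and 12 in control libraries, and of 13 fibroblast and progenitor markers, 8 and 10. Of 10 endothelial markers, 3 were higher in Cre-labelled and 4 in control libraries, and of 7 tested lymphocyte markers, 3 and 5, with 0 lower in either list. Of 8 mural and smooth muscle markers, 3 were higher and 2 lower (Cspg4 and Des) in Cre-labelled libraries. In controls 2 of these were higher and 1 lower (Cspg4). Of 6 Schwann cell markers, 0 were called in Cre-labelled libraries, and S100b alone was called in controls, where it was lower. The summed fibroblast markers ran from 20624 to 24160 at 30 °C against 11390 to 13769 at 22 °C in Cre-labelled libraries, and from 18333 to 20701 against 9437 to 10737 in controls. The summed macrophage markers ran from 5875 to 18782 at 30 °C against 2072 to 2948 at 22 °C in Cre-labelled libraries, and from 3363 to 4342 against 1154 to 1960 in controls. Of 12 brown adipocyte markers, 6 were lower at 30 °C in Cre-labelled and 8 in control libraries, with sums of 120652 to 149900 at 30 °C against 207306 to 315954 at 22 °C in Cre-labelled libraries, and 126346 to 147265 against 240797 to 387421 in controls. Of 12 skeletal muscle markers, 0 were higher at 30 °C in Cre-labelled and 4 in control libraries, with sums of 50.6 to 27997 at 30 °C against 151 to 32703 at 22 °C in Cre-labelled libraries, and 8656 to 16139 against 139.9 to 3929 in controls. None of these markers was at 0 in a whole group, and the part of these cells in the result was not tested. With the muscle covariate, 18 members were called in Cre-labelled and 15 in control libraries. Without single libraries, 13 to 18 members were called in Cre-labelled and 16 to 22 in control libraries.

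Whether the Cre-label difference itself changed with temperature was tested as an interaction. In it, 0 of 34 members passed the threshold, where 0.175% of all genes were higher and 0.266% lower, and the lowest adjusted p was 0.448 with limma. At an unadjusted p under 0.05, 1 member passed, Mmp11 (log2 difference of the differences -1.03 ± 0.47 (SE)). For Adamts15 the interaction was -0.75 ± 0.42, for Adamts1 0.49 ± 0.39 and for Adamtsl5 -0.51 ± 0.32. The median over the members was -0.115, against -0.00883 over all genes. Under quantile normalisation the median over the members turned to 0.145, so it has no stable sign. Scaling to equal totals shifted the median of all genes by -0.106, with 8 genes higher and 41 lower, in place of 23 and 35. So for no member was a call at 1 temperature, or in 1 genotype, shown to differ from the other.

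Of the tested members, 26 (76.5%) were called in at least 1 comparison, against 55.6% of all tested genes, and 8 in none. Those 8 were Timp4, Mmp28, Adamts5 and Mmp17, which had the highest means of the 8 in normalised counts that are not divided by length, and Adamts20, Adamts6, Mmp25 and Mmp9. Mmp28, a secreted MMP, averaged 285 ± 104 in Cre-labelled and 187 ± 26.9 in control libraries at 30 °C, and 212 ± 70.4 and 198 ± 60.8 at 22 °C. Mmp17, a membrane-type MMP, averaged 51.8 ± 10.8 in Cre-labelled and 46.4 ± 5.19 in control libraries at 30 °C, and 49.7 ± 10.5 and 33.0 ± 4.91 at 22 °C. Adamts5, an aggrecanase, averaged 227 ± 66.0 in Cre-labelled and 204 ± 34.5 in control libraries at 30 °C, and 198 ± 49.5 and 175 ± 34.2 at 22 °C. The 10 members below the minimum mean were Adamts16, Adamts18, Adamts8, Adamtsl2, Mmp13, Mmp16, Mmp21, Mmp24, Mmp27 and Mmp8. Their highest value in any library was 27.2 for Mmp13, and the lowest of these maxima was 2.47, for Mmp21. Adamts19, Mmp10, Mmp1a, Mmp1b, Mmp20 and Mmp7 matched the families but were above 0 in fewer than 4 libraries.

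Genes of proteins that these proteases cut were called in every comparison, though in the interaction only Tnc was. Of 22 tested proteoglycans, microfibril proteins and other substrates, 4 were higher and 1 lower with the Cre label at 30 °C, and 5 higher and 1 lower at 22 °C. Over all tested genes, 5.65% were higher and 6.85% lower at 30 °C, and 5.51% and 4.69% at 22 °C. At 22 °C the smallest adjusted p-values were those of Tnc (log2 difference 2.19 ± 0.17 (SE), adjusted p = 7e-07), Ltbp2 (log2 difference -0.97 ± 0.17 (SE), adjusted p = 0.00144) and Fmod (log2 difference 1.25 ± 0.24 (SE), adjusted p = 0.00305), which encode tenascin C, a latent TGF-beta binding protein and fibromodulin. At 30 °C they were those of Ltbp2 (log2 difference -1.23 ± 0.17 (SE), adjusted p = 0.000151), Tnc (log2 difference 0.95 ± 0.17 (SE), adjusted p = 0.00137) and Thbs1 (log2 difference 2.34 ± 0.52 (SE), adjusted p = 0.00655). By temperature, 12 substrates were higher and 2 lower at 30 °C in Cre-labelled libraries, and 13 and 2 in controls. The shares of all tested genes were 15.0% higher and 17.7% lower in Cre-labelled libraries, and 22.9% and 22.7% in controls. Dcn and Lum, called higher in both, are also among the fibroblast and progenitor markers. Tnc was the substrate whose Cre-label difference also passed the interaction test (log2 difference of the differences -1.24 ± 0.24 (SE), adjusted p = 0.029).

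The plasmin system, which activates several MMP precursors, had 3 higher and 2 lower of 10 tested genes with the Cre label at 30 °C, and 1 higher and 2 lower at 22 °C. Serpine2, a serine protease inhibitor, was lower at both, at 30 °C (log2 difference -1.20 ± 0.15 (SE), adjusted p = 5.54e-05) and at 22 °C (log2 difference -0.97 ± 0.15 (SE), adjusted p = 0.000471), as was Plgrkt, a plasminogen receptor. Plaur, the urokinase receptor, was higher at both. At 30 °C against 22 °C, 6 of the 10 were higher in Cre-labelled and 6 in control libraries. Of 13 cathepsin, legumain and cystatin genes, 5 were higher with the Cre label at 30 °C and 1 at 22 °C. The 1 at 22 °C was Ctsc (log2 difference 0.95 ± 0.14 (SE), adjusted p = 0.000425). Of 10 ADAM genes, 1 was higher and 1 lower at 30 °C, and 1 higher and 2 lower at 22 °C, with Adam12 (log2 difference -1.21 ± 0.24 (SE), adjusted p = 0.0033) the lower gene at 30 °C. Of 14 genes of protease activation, inhibition and clearance, 2 were higher and 1 lower at 30 °C, and 1 higher at 22 °C; Pcolce2 (log2 difference 2.34 ± 0.28 (SE), adjusted p = 4e-05), an enhancer of procollagen processing, had the smallest adjusted p at 30 °C. With temperature, cathepsins had 6 higher and 3 lower in Cre-labelled and 5 higher and 4 lower in control libraries, ADAM genes 3 and 1 against 4 and 1, and the activation list 4 and 2 in both. These counts stand against the shares of all tested genes. With the Cre label, 5.65% were higher and 6.85% lower at 30 °C, and 5.51% and 4.69% at 22 °C. So for the Cre label, 1 gene in a list of 10 to 14 is near that background. With temperature, 15.0% were higher and 17.7% lower in Cre-labelled libraries, and 22.9% and 22.7% in controls. So for temperature, a few genes in such a list are near that background.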

How the data were processed

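RNA was measured in 16 libraries, in 4 groups of 4 taken from the sample titles. The deposited table holds 1 column of normalised counts per library, an expression signal that the authors made with kallisto and DESeq2 on mm10, per the submitters' processing notes; their versions and annotation are not stated there. Only 1.85 to 11.2% of low values were whole multiples of a library's most repeated value (tolerance 0.01), so read counts were not recovered and no count test was run. BCL6 peaks carry a score that the authors obtained with HOMER after alignment with Bowtie2, per the submitters' processing notes and the file header; neither states the control library or the threshold.

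In the table, 26 symbols turned into dates were restored, 14 entries had no symbol, and 0 value columns were left unused. Values were tested as log2(value + 1) with limma 3.58.1 (R 4.3.3), with a mean-variance trend and 1 fit of the 4 groups, for 13176 genes with a mean of at least 10, and adjusted by Benjamini-Hochberg at 0.05. The 5 comparisons were Cre-labelled against control at each temperature, 30 °C against 22 °C in each genotype, and the interaction. The fit was tested on simulated data. No pair of libraries held identical values. Members called in at least 1 comparison are named with all values; of the rest, the 4 with the highest mean and the genes below the minimum mean are named, as is every member nearest to a peak, and up to 3 genes of each related list by the smallest adjusted p. The members and lists were chosen with earlier results of these data known. 1 gene matching the symbol pattern is not reported here. Gene positions and promoters are from RefSeq on GRCm38.p6. Alternatives changed the pseudocount, filter, scaling, model and libraries; a skeletal muscle covariate was added after seeing the data.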

Additional observations from a re-analysis of the deposited data

Results flagged for a closer look

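Over the 104 groups of 4 libraries tested (26 named members in 4 groups), 4 held a library far from the others of its group, by a gap to the nearest library, as a share of the group's range, above Dixon's critical value for 4 samples; chance flags about 1 in 20 groups. Adamts14 was at 39.139 in Cre-labelled 30 °C library 3, where the others lay between 35.4 and 36.0. Mmp23 was at 130.9 in Cre-labelled 22 °C library 2, where the others lay between 32.9 and 48.7. Adamts4 was at 17.757 in control 22 °C library 1, where the others lay between 3.63 and 5.37. Adamtsl5 was at 52.616 in control 22 °C library 4, where the others lay between 42.3 and 43.0. The libraries of Mmp23 and Adamts4 flagged here were also the 2 libraries with the fewest genes above 0.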

How the results depend on the processing

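For the 51 calls of members, 1416 values were recomputed under 28 alternatives, and none changed direction. Many of these could not change direction, because the log2 difference stays the same and only its p-value can move. That holds for the other filters, the groups fitted alone and the replicate block. It also holds for a fit with no trend, a robust fit and omission of a library outside the comparison. Of the calls, 32 stayed past the threshold in all alternatives. They include all 6 with the Cre label at 30 °C and Adamts15, Adamts12 and Adamts2 at 22 °C. Where a call was lost, its values stand beside the gene. The pairing by library number was not supported: the correlations of same-numbered libraries ran from -0.48 to 0.238, 6 of 24 were over 0.1, and 6 of 24 were best with their own number. With the replicate block the interaction had 24 genes called, against 58 in the fit without it, and no count of members moved by over 1.5 times. In the interaction, 37 genes were called with no trend, 180 without the 2 sparsest libraries, 31 with the muscle covariate and 21 to 102 without single libraries. The genes called with the Cre label at 22 °C were 525 with the groups fitted alone, 2344 without the 2 sparsest libraries and 764 to 2356 without single libraries, against 1344, and the members 4 with quantile normalisation, 4 with the groups alone and 4 to 11 without single libraries, against 7. At 30 °C the genes were 2795 without the 2 sparsest libraries and 1011 to 2117 without single libraries, against 1647, and the members 10 and 6 to 7, against 6. In Cre-labelled libraries, 10 members were called by temperature with a mean of at least 50, against 17, where 22 members were tested in place of 34. Members with a BCL6 peak were 1 within 10 kb and 2 within 50 kb, against 4, and all such genes 1189 and 1987, against 2478. The causes were not tested. The depth in reads is unknown, which limits low members most.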
